A study of Oryza sativa with 4 samples.

Results

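Transcript levels of 10 circadian clock genes were compared between mre11 and WT rice seedlings. The genes were chosen by locus identifier as LHY, PRR73, PRR37, PRR95, PRR59, PRR1, GI, LUX, ELF3-1 and ELF3-2, out of 55986 gene models in the count tables, and all 10 passed the filter on low counts that left 24470 tested models. The mre11 group was a T-DNA insertion line of OsMre11, a nuclease subunit of the complex that senses and processes DNA double-strand breaks, and the WT group was the japonica cultivar Dongjin, with no agent applied to either. Seedlings were harvested at 7 days of age, 3 plants were pooled in each sample, and each genotype had 2 libraries. The sources do not say whether the whole seedling was taken. The mutant group came from 1 insertion line, with the T-DNA in an intron of the gene and present in every tissue. Total counts were 19004825 and 17170661 in the mre11 libraries and 12753324 and 16460543 in the WT libraries. The Mre11 model LOC_Os04g54340 had 132 and 118 counts in mre11 and 306 and 471 counts in WT, lower in both mutant libraries than in either WT library.

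The plant clock is a set of interlocked repressor loops. LHY, a MYB-type transcription factor, accumulates around dawn and represses evening genes, the PRR proteins follow one another through the day and repress the dawn genes, and LUX and ELF3 belong to the evening complex that represses its targets during the night. In rice the same genes feed into flowering time through GI and the florigen pathway. Because transcripts of these genes rise and fall every day, the balance of morning to evening genes in a sample also tracks the hour at which it was taken. The sources used here do not give the hour of harvest for either genotype, so the hour and the genotype cannot be told apart in any difference described below.

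The morning gene was somewhat higher in mre11, and the daytime, evening and evening complex genes were lower. Of the 10 genes, 0 were called higher and 7 were called lower, where a call meant an adjusted p under 0.05 and at least a 2-fold difference in edgeR's quasi-likelihood test over all tested models. The number called higher was also 0 with DESeq2, and 0 at an unadjusted p under 0.05 with the 2-fold limit. Among all 24470 tested models, 12.0% were called higher and 9.31% lower. Without the 2-fold limit all 10 genes passed, with 1 higher and 9 lower, against 18.8% of all tested models higher and 18.3% lower. Levels are given as counts scaled to library size with TMM factors (CPM). No gene had overlapping libraries between the genotypes, with LHY above in mre11 and the other 9 below, whereas 37.5% of all tested models lay wholly above in mre11 and 35.7% wholly below. The median log2 fold change of mre11 over WT was -1.37 over the 10 genes and 0.03 over all tested models. By time of day it was 0.63 for the morning gene, -0.98 for the 4 daytime genes, -2.34 for the 3 evening genes and -1.36 for the 2 ELF3 genes. In seedling samples, fewer cells that express a gene and less of its RNA per cell cannot be told apart.

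**Figure D1:**
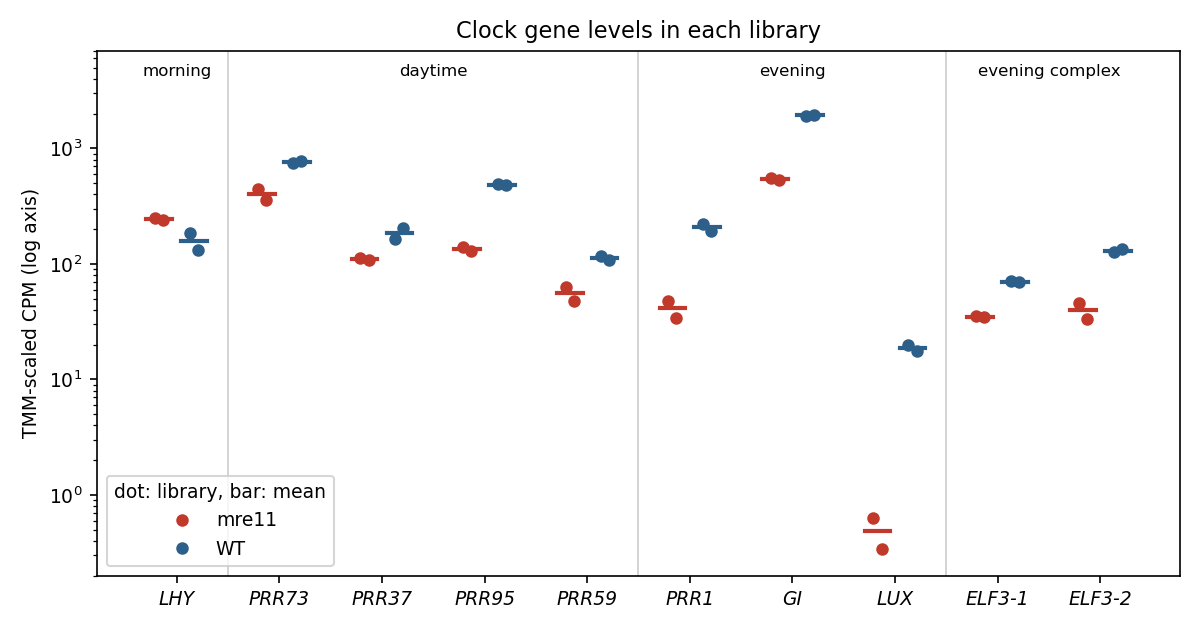
Level of each clock gene in each library, as CPM scaled by TMM factors, on a log axis, with genes ordered by time of day and mre11 left of WT. Dots are libraries and bars are the means of 2. LHY alone lies higher in mre11, and LUX shows the widest gap, at 0.63 and 0.34 CPM in mre11 against 19.99 and 17.69 CPM in WT.

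Lists chosen for tissue content were examined beside these differences. For green tissue the list was the 10 models annotated to light harvesting. Their summed level was 11914.5 and 18548.6 CPM in mre11 and 5957.9 and 9955.4 CPM in WT. As for the clock genes, the hour of harvest, tissue content and genotype cannot be told apart in this sum. Of the 9 models that were tested, 7 were above 0 on the log2 scale, where the median of all tested models was 0.03. Of the same 9, 3 (33.3%) were called higher, beside 12.0% of all tested models. The remaining model, LOC_Os01g52240, was at 0 in all 4 libraries. For seed remains the list was the 60 models annotated to nutrient reservoir activity. They summed to 1222.6 and 1361.5 CPM in mre11 and 995.5 and 945.0 CPM in WT. Of these, 14 were at 0 in all 4 libraries, 28 passed the filter, and the median log2 fold change of the 28 was -0.03. One model, LOC_Os08g35760, set the direction of that sum, at 559.8 and 712.1 CPM in mre11 and 295.0 and 92.7 CPM in WT. Without it, a choice made after seeing the data, the other 59 models summed to 662.8 and 649.4 CPM in mre11 and 700.5 and 852.3 CPM in WT, so the seed list has no single direction. Whether either list tracks its tissue, and the part of either list in the clock gene differences, was not tested.

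LHY (LOC_Os08g06110, KEGG orthology K12133), the dawn repressor at the head of the loop, was the single member with higher values in mre11. Its level was 251.1 and 239.8 CPM in mre11 and 186.5 and 131.4 CPM in WT, from 5199 and 4220 counts against 2220 and 2065. The mre11 libraries were close to each other, while the WT libraries were spread more widely and WT replicate 1 came nearer to the mutant. The log2 fold change was 0.63 ± 0.19 (SE, n = 2 each), a 1.54-fold higher level, with an adjusted p of 0.0448 in edgeR's test. This result rested on every library but WT replicate 1. Without WT replicate 2 the value was 0.39 with an adjusted p of 0.204, without mre11 replicate 1 the adjusted p was 0.0796, and without mre11 replicate 2 it was 0.0591. Among all tested models, the fold change of LHY lay at percentile 74.4.

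The daytime genes encode pseudo-response regulators, which repress the LHY class of dawn genes in Arabidopsis and follow one another from morning to afternoon. PRR73 (LOC_Os03g17570, K12129), the most abundant of them in counts, was at 444.7 and 358.8 CPM in mre11 and 751.2 and 784.0 CPM in WT. All mre11 values were below all WT values, and the log2 fold change was -0.93 ± 0.18 (adjusted p = 0.00958), just short of 2-fold. PRR37 (LOC_Os07g49460, K12129) is its paralog and a known regulator of heading date in rice under long days. It was at 113.5 and 107.6 CPM in mre11 and 165.7 and 203.5 CPM in WT, with a log2 fold change of -0.74 ± 0.15 (adjusted p = 0.0131), the smallest of the 9 decreases. Leaving out WT replicate 2 raised the adjusted p to 0.0568 for PRR73 and to 0.0857 for PRR37.

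The next pair of daytime genes carries another orthology number, K12130, and its members differed in size of change. PRR95 (LOC_Os09g36220) stood at 140.7 and 128.5 CPM in mre11 and at 487.3 and 482.5 CPM in WT, a 3.60-fold lower level with replicates of each genotype nearly on top of each other. The log2 fold change was -1.85 ± 0.15 (adjusted p = 0.00122), and PRR95 kept its call in 13 of 13 alternative analyses. PRR59 (LOC_Os11g05930) was at 63.2 and 47.8 CPM in mre11 and 116.4 and 108.8 CPM in WT. Its log2 fold change of -1.02 ± 0.17 (adjusted p = 0.00647) lay almost on the 2-fold limit, so that it was called in 7 of 13 alternatives, and without WT replicate 1 the adjusted p was 0.0524. Relative to PRR59 in the same library, PRR95 had 2.23 and 2.69 times as many counts in mre11 and 4.19 and 4.43 times in WT. The corresponding ratio of PRR73 to PRR37 was 3.92 and 3.34 in mre11 and 4.53 and 3.85 in WT, and there the libraries of the genotypes overlapped.

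The 3 evening genes all fell, and their median decrease, that of PRR1, was larger than that of the other groups. The groups were not separate in size of change, since GI at -1.82 fell no further than the daytime gene PRR95 at -1.85. PRR1 (LOC_Os02g40510, K12127), the rice counterpart of Arabidopsis TOC1, which represses dawn genes at dusk, was at 48.0 and 34.3 CPM in mre11 and 223.2 and 193.3 CPM in WT. These come from 994 and 603 counts in mre11 and 2657 and 3037 in WT, and even the higher mre11 library was far under the lower WT library. The log2 fold change was -2.34 ± 0.20 (adjusted p = 0.00132), a 5.06-fold lower level.

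GI (LOC_Os01g08700, K12124) encodes the large protein GIGANTEA, which in Arabidopsis stabilises blue-light F-box proteins and links the clock to the florigen pathway. It was at 559.4 and 536.4 CPM in mre11 and 1914.7 and 1950.8 CPM in WT, with spreads that were small beside the 3.53-fold gap. Its share of all counts was 0.0609% and 0.0550% in mre11 and 0.179% and 0.186% in WT. Ranked per length within a library, GI was the 1092nd and 1272nd most abundant model in mre11 and the 211th and 196th in WT. The log2 fold change was -1.82 ± 0.18 (adjusted p = 0.00151).

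LUX (LOC_Os01g74020) is the DNA-binding member of the evening complex, a MYB-type protein. The deposited annotation gives this locus no orthology number and places it in the circadian rhythm term. It had 13 and 6 counts in mre11 and 238 and 278 counts in WT. The 95% Poisson intervals of those counts, which cover counting error only, were 6.92 to 22.2 and 2.20 to 13.1 in mre11 and 208.7 to 270.2 and 246.3 to 312.7 in WT, so that the genotypes were far apart although the mutant level was low. The log2 fold change was -5.24 ± 0.34 (adjusted p = 0.000935), a 37.7-fold lower level. Only 24 of the tested models had a lower fold change, which made LUX the 25th lowest of 24470. On the log2(RPKM + 1) scale, where the pseudocount of 1 exceeds the mutant level, the difference was -3.39.

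The partners of LUX in the evening complex are the 2 ELF3 genes, both K12125, which in Arabidopsis bridge LUX to ELF4. ELF3-2 (LOC_Os01g38530) stood at 46.1 and 33.1 CPM in mre11 and at 126.3 and 134.8 CPM in WT, a log2 fold change of -1.72 ± 0.19 (adjusted p = 0.00191). ELF3-1 (LOC_Os06g05060), which is linked to heading date in rice, was at 35.3 and 34.6 CPM in mre11 and 71.0 and 69.4 CPM in WT. The replicates of ELF3-1 lay close together, with SDs of 0.460 CPM in mre11 and 1.10 CPM in WT. Its log2 fold change of -1.01 ± 0.13 (adjusted p = 0.00293) was at the 2-fold limit and was called in 7 of 13 alternatives, whereas ELF3-2 was called in 13 of 13. The count ratio of ELF3-2 to ELF3-1 was 1.31 and 0.957 in mre11 and 1.78 and 1.94 in WT. LUX changed more than its partners, with a count ratio of LUX to ELF3-1 of 0.0178 and 0.00985 in mre11 and 0.282 and 0.255 in WT.

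**Figure D2:**
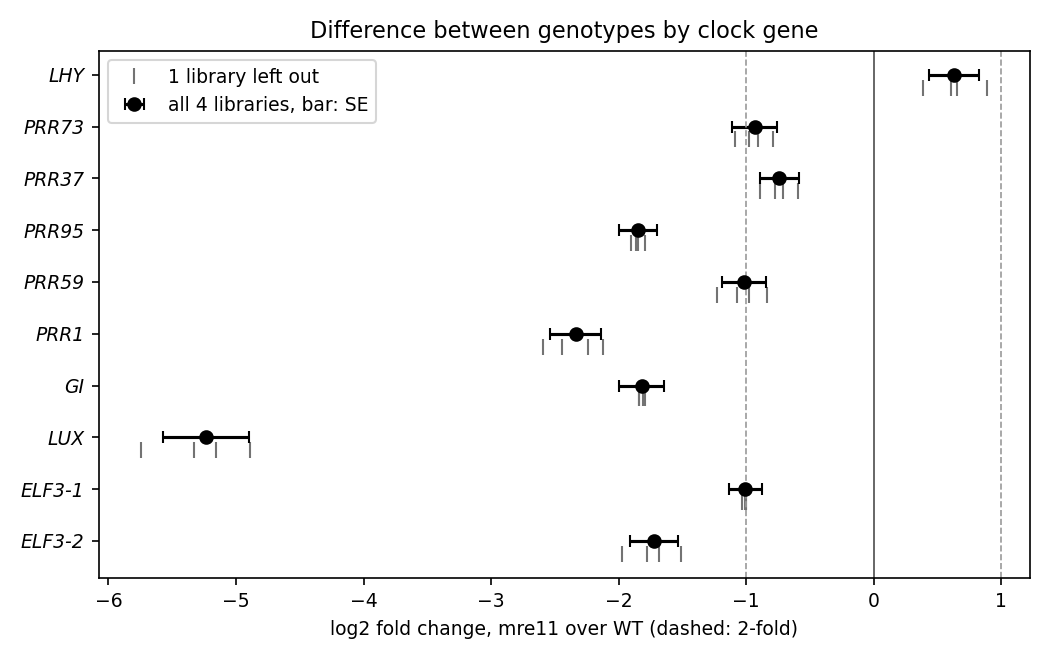
Log2 fold change of mre11 over WT for each clock gene, from edgeR with all 4 libraries (dots, bars show the SE), with the values obtained when 1 library was left out as ticks below. PRR95, PRR1, GI, LUX and ELF3-2 stay beyond the dashed 2-fold line at every tick, while PRR59 and ELF3-1 sit on it at -1.02 and -1.01.

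Morning and evening genes were then compared within each library, which removes depth and scaling from the comparison. The LHY count was 5.23 and 7.00 times that of PRR1 in mre11 and 0.836 and 0.680 times in WT, an 8.03-fold difference. Against GI the ratio was 0.449 and 0.447 in mre11 and 0.0974 and 0.0674 in WT, which differs 5.53-fold. For LUX in the denominator it was 399.9 and 703.3 in mre11 and 9.33 and 7.43 in WT, a 63.7-fold difference that depends on the 13 and 6 counts of LUX. The mutant libraries therefore held more LHY per evening transcript in each of the 3 pairs, with no overlap between genotypes. This follows from the separate levels, with LHY above and the 3 evening genes below in mre11, and adds no independent evidence. Most of each difference came from the evening gene.

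Ratios of LHY to the daytime genes moved the same way, which the separate levels also fix. The difference was 5.65-fold for PRR95, 3.21-fold for PRR59, 3.01-fold for PRR73 and 2.61-fold for PRR37. GI and PRR1 moved more nearly together, with a GI to PRR1 count ratio of 11.7 and 15.7 in mre11 and 8.58 and 10.1 in WT. LUX fell further than PRR1, with a count ratio of 0.0131 and 0.00995 in mre11 and 0.0896 and 0.0915 in WT.

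A single morning-minus-evening value per library was taken as the log2 CPM of LHY minus the mean log2 CPM of PRR1, GI and LUX. It was 3.29 and 3.70 in mre11 and -0.13 and -0.52 in WT, a difference of 3.82 log2 units. LUX contributed much of its size, since with LUX left out the difference was 2.74, and it stayed positive with any of the 3 evening genes removed. LHY and the evening genes peak at opposite ends of the day, so libraries sampled at different hours would also differ in this value, and it is given as a description with no test. With 2 libraries a group, the smallest two-sided p that an exact permutation test could reach is 0.33.

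**Figure D3:**
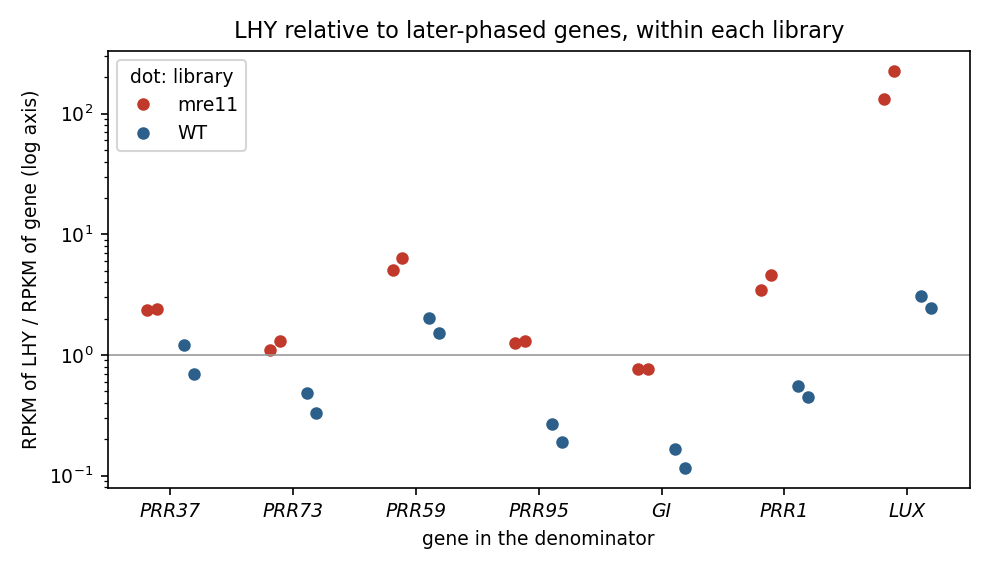
Ratio of LHY to each later-phased gene within each library, as RPKM over RPKM on a log axis, with mre11 left of WT and dots for libraries. Every mre11 dot lies above both WT dots for the same gene, and the gap is widest for LUX, at 131.6 and 227.7 in mre11 against 3.05 and 2.43 in WT.

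The order of the genes by level was read from the deposited RPKM, the read density of a gene scaled to its length and the library's depth, which allows comparison between genes of different length. In mre11 GI was highest at 84.4 ± 6.14 RPKM (SD, n = 2), followed by LHY at 65.0 ± 4.91, PRR73 at 54.2 ± 10.5, PRR95 at 50.8 ± 5.43 and PRR37 at 27.3 ± 2.22. PRR1 at 16.7 ± 4.63, ELF3-1 at 13.0 ± 0.728, PRR59 at 11.6 ± 2.76 and ELF3-2 at 10.3 ± 2.81 RPKM followed, and LUX was last at 0.395 ± 0.177. Neighbours from LHY to PRR95 and from PRR1 to ELF3-2 had overlapping libraries, so their order in mre11 is not resolved.

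In WT the order was GI at 265.8 ± 7.72 RPKM, PRR95 at 163.1 ± 1.45, PRR73 at 92.2 ± 4.25, PRR1 at 74.9 ± 6.43 and PRR37 at 40.8 ± 6.54 (SD, n = 2). LHY at 37.5 ± 8.60, ELF3-2 at 30.2 ± 1.86, ELF3-1 at 23.3 in both libraries, PRR59 at 20.9 ± 0.672 and LUX at 13.6 ± 0.962 RPKM came after it. Only PRR37 with LHY and LHY with ELF3-2 overlapped as neighbours. GI led and LUX was last in both genotypes, whereas LHY was the second of the 10 in mre11 and the sixth in WT, and PRR1 was the sixth in mre11 and the fourth in WT. The range from the highest to the lowest member was 213.7-fold in mre11 and 19.6-fold in WT.

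The order depends on the gene length used. The lengths that the RPKM values imply and the listed gene lengths differ unevenly, with 4279 against 12519 bases for PRR37, 3997 against 7705 for LHY and 5076 against 4740 for PRR59. With CPM per kilobase of listed length, an alternative chosen after seeing the data, LHY was the third in mre11, at 31.9 behind PRR73 at 43.6, and the seventh in WT, at 20.6. PRR1 was then the fifth in mre11 and the fourth in WT, and PRR37 the seventh in mre11 and the eighth in WT. GI stayed first in both genotypes. LUX stayed last in mre11 at 0.370, while in WT LUX at 14.4 and ELF3-1 at 13.9 CPM per kilobase overlapped at the bottom.

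**Figure D4:**
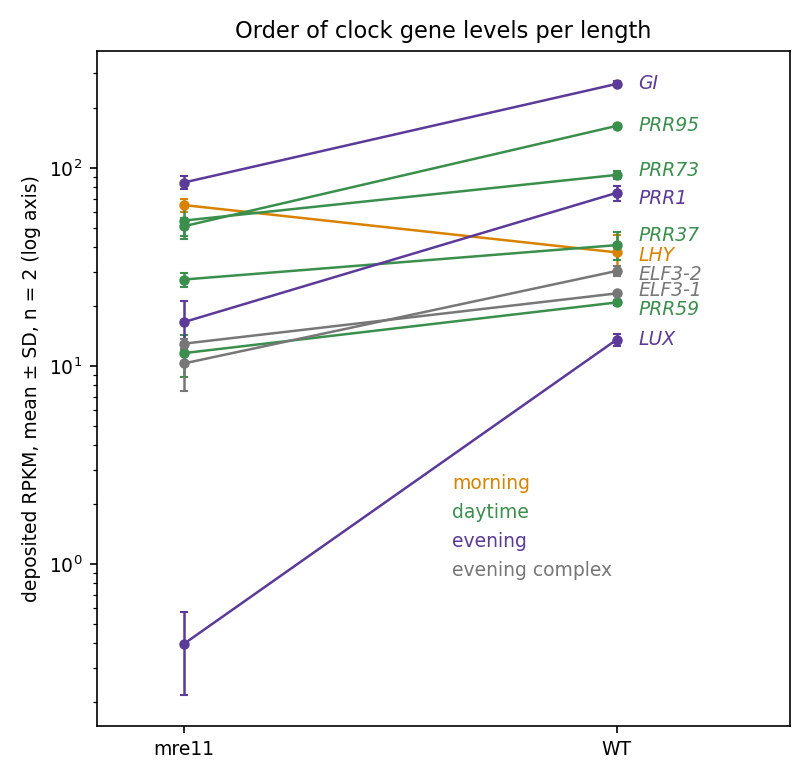
Mean deposited RPKM of each clock gene in mre11 (left) and WT (right) on a log axis, with SD bars over 2 libraries and lines coloured by time of day. The line of LHY descends toward WT, from 65.0 RPKM in mre11 against 37.5 in WT, and those of the other 9 genes climb.

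Other genes of the clock and of light signalling were taken from the orthology numbers and gene ontology terms of the deposited annotation, leaving out the 10 members. Of the 65 tested models, 7 were called higher (10.8%) and 11 lower (16.9%), beside 12.0% and 9.31% over all tested models, with a median log2 fold change of -0.38 against 0.03. The number called higher was 4 without mre11 replicate 1 and 3 without WT replicate 1 or WT replicate 2. Without the fold limit, 8 were higher (12.3%) and 24 lower (36.9%), beside 18.8% and 18.3% over all tested models.

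Photoreceptor genes in the orthology lists were lower or did not pass the test. Among the F-box photoreceptors, FKF1 (LOC_Os11g34460, K12116), a partner of GI in Arabidopsis, was at 8.16 and 6.08 CPM in mre11 and 31.1 and 42.3 CPM in WT, a log2 fold change of -2.36 ± 0.24 (adjusted p = 0.00170). The ZTL-type models LOC_Os06g47890 and LOC_Os02g05700 had values of -0.48 (adjusted p = 0.0337) and -0.36 (adjusted p = 0.113). Of the 3 cryptochromes, the CRY1 model LOC_Os04g37920 was called lower at -1.40 ± 0.17 (adjusted p = 0.00261), with 36.9 and 44.1 CPM in mre11 and 94.9 and 118.3 CPM in WT. The other CRY1 model, LOC_Os02g36380, was at -0.93 (adjusted p = 0.00716) and the CRY2 model LOC_Os02g41550 at -0.42 (adjusted p = 0.0738). The red-light receptors PHYA (LOC_Os03g51030) and PHYB (LOC_Os03g19590) were lower by less than 2-fold, at -0.95 (adjusted p = 0.00504) and -0.65 (adjusted p = 0.0105). None of the 3 COP1 and SPA1 models, which target light-signalling factors for degradation, passed the test, and neither did the PIF3 model.

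Casein kinase II, which phosphorylates LHY-class proteins in Arabidopsis, had 6 tested models. Of these, 0 were called higher and 1 lower (16.7%), beside 12.0% and 9.31% over all tested models. The model called lower was the regulatory subunit LOC_Os10g41520 (K03115), with a log2 fold change of -1.18 ± 0.14. It was at 109.3 and 113.2 CPM in mre11 and 265.9 and 238.1 CPM in WT. The catalytic model LOC_Os03g55389 (K03097) was at -0.82 (adjusted p = 0.0173 in edgeR's test), short of 2-fold. Under the florigen orthology number K16223, which covers the wider FT family, 2 models were lower (25%) and 1 higher (12.5%) of 8 tested. LOC_Os06g30370 was at 1.06 and 2.56 CPM in mre11 and 20.8 and 24.5 CPM in WT, with a log2 fold change of -3.66 ± 0.40 (adjusted p = 0.00186). LOC_Os09g33850 had a lower value too, -1.35 ± 0.35 (adjusted p = 0.0251). LOC_Os12g13030 had 14 and 11 counts in mre11 and 0 and 1 in WT, at least 2.94-fold higher when WT is set to a floor of 3 counts per library. One model with the HY5 orthology number K16241, LOC_Os04g44900, was called higher at 1.28 ± 0.24 (adjusted p = 0.00925), but its ontology terms describe a membrane receptor kinase, so its identity is uncertain.

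Of the 12 tested models placed in circadian terms, 3 were called higher and 3 lower, which is 25% each way beside 12.0% and 9.31% over all tested models. The most abundant was LOC_Os03g46770, whose terms include nucleic acid unwinding and response to cold, at 2826.1 and 3451.0 CPM in mre11 and 9837.6 and 7528.2 CPM in WT, a log2 fold change of -1.47 ± 0.26 (adjusted p = 0.00738). Of the potassium channel models called in this term, LOC_Os01g11250 was lower at -1.48 ± 0.29 and LOC_Os02g14840 higher at 1.66 ± 0.44. The remaining called models were response regulators of K14492, the type-A class that is induced by cytokinin. LOC_Os11g04720 was higher at 2.79 ± 0.30 and LOC_Os12g04500 at 2.61 ± 0.25, and LOC_Os02g58350 was lower at -1.29 ± 0.30. The short arms of chromosomes 11 and 12 share a duplicated segment, so reads of LOC_Os11g04720 and LOC_Os12g04500 may not be separable.

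In the photoperiodism terms, 1 of 20 tested models was higher, LOC_Os12g08280 at 1.39 ± 0.25, and 1 was lower, the casein kinase II subunit above. That is 5% each way, under the 12.0% and 9.31% over all tested models. In the light perception terms, 1 of 16 was higher, the nucleoside diphosphate kinase LOC_Os12g36194 at 1.51 ± 0.19, and 4 were lower, which is 6.25% and 25% beside the same shares over all models. The largest decreases there were in LOC_Os12g01140 and LOC_Os11g01140, annotated as blue light photoreceptor kinases of phototropism, at -2.12 ± 0.28 and -2.09 ± 0.25. This pair also lies in the duplicated segment. LOC_Os01g12160 (K14506) followed at -1.54 ± 0.17, and the fourth was the CRY1 model.

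**Figure D5:**
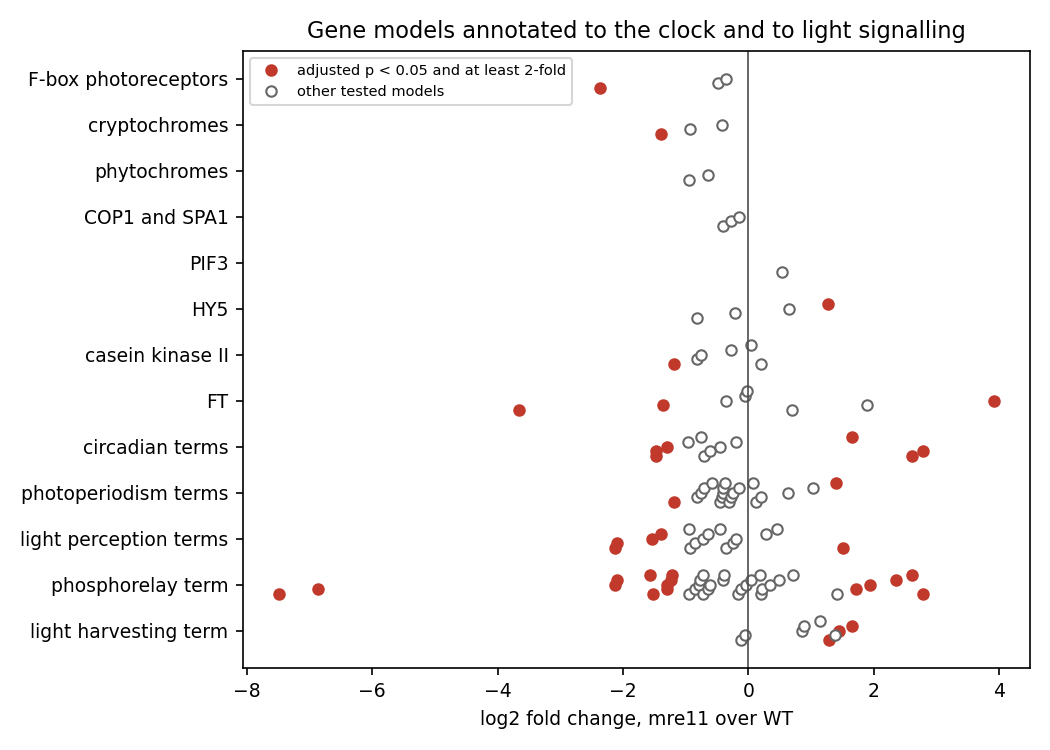
Log2 fold change of mre11 over WT for tested gene models with clock, light-signalling, phosphorelay and light-harvesting annotation, without the 10 clock genes, 1 row per list. Filled dots passed an adjusted p of 0.05 and 2-fold, and open dots did not. The filled dots of the F-box photoreceptor and cryptochrome lists lie left of 0, and those of the light-harvesting list lie right of it.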

How the data were processed

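RNA-seq libraries of mre11 and WT seedlings (2 each) were analysed from the processed tables. Per the study's methods and the labels, the authors mapped reads to the MSU version 7.0 rice genome and counted them per gene model with HTSeq 0.6.1, and the deposited counts are raw whole numbers. The aligner and the strand setting are not given in the sources used here, so reads of overlapping or near-identical loci may not be separable. The authors also deposited RPKM. Those values imply a length of 3997 bases for LHY, where the gene length column gives 7705, and the gap varies between genes, so RPKM was used for the order of genes, the plotted ratios and the limma alternatives only. Deposited columns of the authors' own comparison (fold changes and p-values, made with DESeq2 1.6.3) were not used.

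Counts were filtered with filterByExpr, scaled by TMM and tested with edgeR 4.0.16 (glmQLFit, glmQLFTest) in R 4.3.3 over 24470 models, with Benjamini-Hochberg adjustment over all of them. A call needed an adjusted p under 0.05 and at least 2-fold. SE is the absolute log2 fold change over the square root of F. The code was run on simulated counts with a dispersion common to all models and balanced changes larger than 2-fold. That setting does not bear on calls near the 2-fold limit. Alternatives were DESeq2 1.42.0, limma 3.58.1 on log2(RPKM + 1) and log2(RPKM + 0.1), other scalings, filters and thresholds, a replicate block and each library left out. The named genes are all 10 members and, per list, up to 3 models called higher and 3 called lower by absolute log2 fold change. The members and lists were chosen with earlier results of these data known. Replicates were separate pools of plants per the study's methods. RefSeq (ASM3414082v1) synonyms matched 7 of the 10 names, on the chromosome the locus identifier gives, and PRR59, LUX and ELF3-2 had no match. Total counts and the floor of 3 counts, 0.158 to 0.235 CPM, set the precision at low levels.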

Additional observations from a re-analysis of the deposited data

How the results depend on the processing

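Of 130 alternative values for the 10 genes, 124 kept their direction and side of the adjusted p threshold, 6 lost the threshold and 0 changed sign. The 6 were all from leaving out a library and are given with LHY, PRR73, PRR37 and PRR59. The number of clock genes called lower was 5 to 8 with 1 library left out, 5 with upper-quartile scaling, library size or limma, and 9 at any fold, where 1 was called higher. The number of clock and light models called higher was 3 to 7 with 1 library left out, and the number called lower was 24 at any fold. The morning-minus-evening difference was 3.18 on log2(RPKM + 1), 2.83 with PRR73 and PRR37 added to LHY, 2.74 without LUX, 4.50 without GI and 4.23 without PRR1. Scaling by upper quartile or library size moved the median of all tested models to 0.11 or 0.19, with 63.2% or 68.9% of calls higher against 56.3% with TMM. Relative to those medians LHY, at 0.71 and 0.80, was still higher. With a replicate block, 7 clock genes were called lower and LHY was at 0.65 (adjusted p = 0.0335). The sources do not say whether same-numbered libraries share more than a number. Over all tested genes the correlation of their deviations was 0.02, and the block changed no call of a clock gene. Whether they shared an hour of harvest was not tested. Low counts limit LUX in mre11.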

Other observations

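Cytokinin signalling uses a phosphorelay from receptor kinases through phosphotransfer proteins to response regulators, and the pseudo-response regulators of the clock share the receiver domain of this system. Outside the 10 clock genes, 36 of 55 models in the phosphorelay term were tested, of which 5 were called higher and 10 lower, beside 12.0% and 9.31% of all tested models. The 5 called higher, among 7 tested type-A response regulators (K14492), were LOC_Os11g04720, LOC_Os12g04500, LOC_Os07g26720, LOC_Os04g57720 and LOC_Os04g36070, the last 2 named after their values were seen. Reads of LOC_Os11g04720 and LOC_Os12g04500, in the duplicated segment named above, may not be separable, so they may not be separate values here. LOC_Os07g26720 had only 2 and 5 counts in WT. One other type-A model, LOC_Os02g58350, was called lower at -1.29. LOC_Os07g26720 was at 1.50 and 1.14 CPM in mre11 and 0.168 and 0.318 CPM in WT, and LOC_Os11g04720 was at 14.0 and 10.9 CPM in mre11 and 1.60 and 1.97 CPM in WT. The median log2 fold change was 1.94 for these 7 models and -1.22 for the 5 tested type-B response regulators (K14491), the transcription factors of the pathway, of which 3 were called lower.

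The lowest values of the term were in LOC_Os04g28150 and LOC_Os04g28160, annotated as phosphorelay response regulators. LOC_Os04g28160 had 2 and 18 counts in mre11 and 1278 and 302 counts in WT, so the WT libraries differed widely from each other while both lay above the mutant. LOC_Os04g28150 had 0 counts in both mre11 libraries and 23 and 13 in WT, at least 8.75-fold lower when mre11 is set to a floor of 3 counts per library.

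Of the 9 tested light-harvesting models, 3 (33.3%) were called higher, beside 12.0% of all tested models, and their median log2 fold change was 1.14. LOC_Os08g33820 at -0.04 and LOC_Os09g12540 at -0.12 lay below 0. LOC_Os11g13890 stood highest at 1.66, followed by LOC_Os04g38410 at 1.44 and LOC_Os07g37550 at 1.29. LOC_Os07g37240 had a value of 1.38 that did not pass the test. Among the nutrient reservoir models, 5 of 28 tested were called higher (17.9%) and 2 lower (7.14%), near the 12.0% and 9.31% over all tested models. The largest increase was in LOC_Os08g35750, at 2.03 and 7.16 CPM in mre11 and 0.252 and 0.382 CPM in WT. LOC_Os12g05870 had 23 and 28 counts in mre11 and 4 and 0 in WT. LOC_Os01g55690 was lower, at 0.483 and 0.511 CPM in mre11 and 2.69 and 1.59 CPM in WT, and so was LOC_Os08g13440, at 293.1 and 197.1 CPM in mre11 and 448.4 and 571.7 CPM in WT.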
